A study of Mus musculus with 6 samples.

Results

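The miR-142a hairpin of the mouse gives a pair of mature microRNAs (miRNAs, short RNAs that guide the silencing of messenger RNAs), mmu-miR-142a-5p and mmu-miR-142a-3p. Both were followed here in the kidney of female mice aged 17 weeks, in 6 libraries, 3 from C57BL/6 and 3 from MRL/lpr. They were chosen by name as 2 of the 1542 entries in the deposited count table, and both passed the filter on low counts with 449 other entries, 451 in all. The C57BL/6 mice are wild-type controls. The MRL/lpr mice (genotype MRL/MpJ-Fas<lpr>/J) carry the lpr mutation of Fas, a death receptor of lymphocytes, on another background and develop a lupus-like disease with nephritis. Strain background, mutation and disease therefore differ together between the groups and cannot be told apart. No treatment is named, the RNA is from kidney tissue as a whole, and nothing says whether the libraries come from different animals. The p-values then measure only the spread between libraries, which may be technical.

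As background, miR-142 is made in nearly all cells of the blood lineage and very little elsewhere, which is why it is used as a sign of leukocytes in solid tissue. Its precursor folds back on itself, and an enzyme pair cuts out a short duplex with the 5p arm on one side and the 3p arm on the other. Either arm can be loaded into an Argonaute protein, which then finds targets mostly through the seed, bases 2 to 8 of the arm. In a healthy kidney most RNA comes from tubular epithelium, and in lupus nephritis lymphocytes and myeloid cells enter the tissue.

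The 3 mature sequences of the locus are shown because their layout bears on how their reads can be told apart. They come from RefSeq (GRCm38.p6, the build that the submitters' notes name), 5′ to 3′, with the seed in capitals.
mmu-miR-142a-5p: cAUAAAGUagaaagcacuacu
mmu-miR-142a-3p: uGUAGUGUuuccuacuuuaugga
mmu-miR-142b: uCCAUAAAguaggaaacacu
In the precursor of the miR-142a arms, the capitals mark the 5p arm and then the 3p arm.
Mir142 hairpin: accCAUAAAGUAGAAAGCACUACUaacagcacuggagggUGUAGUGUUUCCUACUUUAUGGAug

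The hairpin Mir142 lies on the plus strand at chr11:87756864-87756927. Its 5p arm spans chr11:87756867-87756887 and its 3p arm chr11:87756903-87756925. In GENCODE M21 the hairpin is in the intron of the long non-coding RNA Mir142hg (chr11:87755577-87757270), which has 2 exons, and it overlaps neither. An antisense hairpin, Mir142b, covers it on the minus strand (chr11:87756841-87756955). All 20 bases of its mature product miR-142b are the reverse complement of bases in the 3p arm. Over 18 aligned bases miR-142b also differs from the 5p arm at only 2. The arms and miR-142b were counted as separate entries. Without a statement on strand or multi-mapping in the sources, whether their reads were kept apart cannot be checked. None of the other 995 named entries that had a RefSeq sequence shared the seed of either miR-142a arm. The entries without a RefSeq sequence were not compared.

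Both arms had higher mean levels in MRL/lpr kidneys than in C57BL/6 kidneys, but neither difference passed the test with all 6 libraries. The C57BL/6 libraries were themselves far apart. Replicate 2 of that strain held about as much miR-142a as the lowest MRL/lpr library, while replicates 1 and 3 held much less. Without C57BL/6 replicate 2 both arms passed the test. That library was singled out in earlier work on these data for its high leukocyte miRNAs, so leaving it out raises the strain difference by construction and is no separate support for it.

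Levels are CPM (the count of a miRNA relative to the size of its library) after TMM scaling, which sets an effective size for each library. The libraries held from 5259528 to 6773829 counts. mmu-miR-142a-3p, the arm most often named as the leukocyte marker, had 168, 553 and 165 counts in C57BL/6 replicates 1, 2 and 3, which are 34.4, 88.8 and 25.7 CPM. In MRL/lpr replicates 1, 2 and 3 it had 1024, 571 and 913 counts, which are 145, 111 and 151 CPM. Every MRL/lpr library was above every C57BL/6 library for this arm, although the lowest MRL/lpr value was only 1.25 times C57BL/6 replicate 2. Groups failed to overlap, with MRL/lpr higher, for 14% of all miRNAs tested. Against the higher of the other C57BL/6 libraries the lowest MRL/lpr value was 3.22 times as large.

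The fitted difference for miR-142a-3p was 2.73-fold, from 49.6 ± 34.2 CPM in C57BL/6 to 136 ± 21.6 CPM in MRL/lpr (SD, n = 3 each; log2 fold change 1.45 ± 0.45 SE, 95% interval 0.43 to 2.47, edgeR adjusted p = 0.0943). Its unadjusted p of 0.0113 (edgeR, model over all miRNAs) ranked 54 of 451, behind the 28 miRNAs (6.21%) that passed, of which 19 (4.21%) were higher in MRL/lpr. Without C57BL/6 replicate 2 the difference was 4.61-fold (log2 fold change 2.21 ± 0.26 SE, 95% interval 1.62 to 2.79, edgeR adjusted p = 0.00193), and the arm ranked 3 of 470 by p.

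mmu-miR-142a-5p, the partner arm, had more counts than the 3p arm in every library. It had 367, 1096 and 302 counts in C57BL/6 replicates 1, 2 and 3, or 75.1, 176 and 47.05 CPM. MRL/lpr replicates 1, 2 and 3 had 1735, 755 and 1797 counts, or 245, 147 and 297 CPM. Here the groups overlapped, because MRL/lpr replicate 2 was at 0.832 times C57BL/6 replicate 2, and it was still 1.95 times the higher of the other C57BL/6 libraries.

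The fitted difference for miR-142a-5p was 2.31-fold, from 99.4 ± 67.9 to 230 ± 76.6 CPM (SD, n = 3 each; log2 fold change 1.21 ± 0.52 SE, 95% interval -0.023 to 2.44, edgeR adjusted p = 0.245). Without C57BL/6 replicate 2 it was 3.87-fold (log2 fold change 1.95 ± 0.35 SE, 95% interval 1.17 to 2.74, edgeR adjusted p = 0.00646), and it ranked 25 of 470. In that fit 54 miRNAs (11.5%) passed, 42 of them (8.94%) higher in MRL/lpr, so calls were more common among all miRNAs as well. The groups then did not overlap for either arm, as for 23.8% of all miRNAs with MRL/lpr higher.

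**Figure D1:**
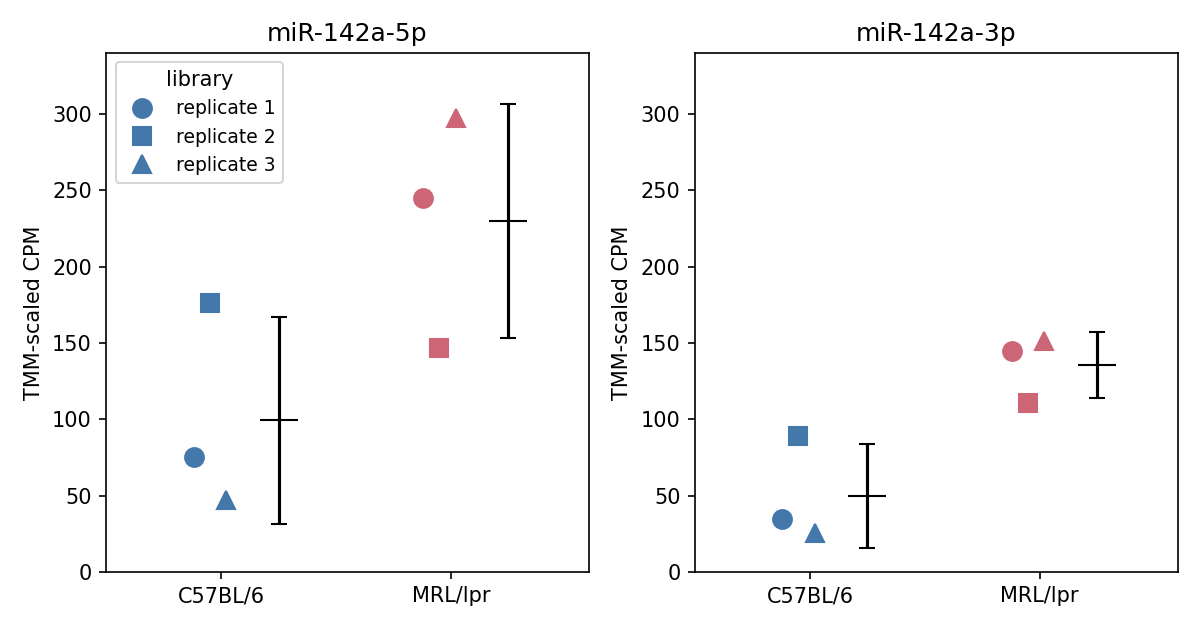
Level of miR-142a-5p (left) and miR-142a-3p (right) in each library, in TMM-scaled CPM on an axis from 0; symbols mark the replicate, and the black bar is the mean ± SD of 3 libraries. C57BL/6 replicate 2 (square) stands at 176 and 88.8 CPM, far above the other C57BL/6 libraries, and overlaps the MRL/lpr range for the 5p arm only.

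Adding the arms gives a single level for the hairpin. The sum was 109 CPM, 265 CPM and 72.8 CPM in C57BL/6 replicates 1, 2 and 3. It was 390 CPM, 257 CPM and 449 CPM in the MRL/lpr libraries. C57BL/6 replicate 2 thus lay above MRL/lpr replicate 2, and the other C57BL/6 libraries lay below all others. Group means were 149 ± 102 CPM for C57BL/6 and 365 ± 97.9 CPM for MRL/lpr (SD, n = 3 each), a ratio of 2.45, or 4.01 against the mean of C57BL/6 replicates 1 and 3. In tissue RNA, more leukocytes and more miR-142a per leukocyte cannot be told apart, and neither cells nor their number were measured.

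miR-142a was of middling abundance. Ranked by counts among all 1542 entries, the 5p arm stood between 104 and 139 in the MRL/lpr libraries, and at 164, 130 and 188 in C57BL/6. The 3p arm stood between 137 and 149 in MRL/lpr and at 202, 164 and 214 in C57BL/6. The 3p arm made up at most 0.0164% of a library and the 5p arm at most 0.0324%, and the smallest count, 165, has a 95% Poisson interval from 141 to 192. Such intervals cover counting error only, since reads without molecular identifiers can be copies of 1 molecule, and they are narrow beside the gaps between C57BL/6 libraries.

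The spread within C57BL/6 was wide for both arms. C57BL/6 replicate 2 exceeded the mean of replicates 1 and 3 by a factor of 2.96 for the 3p arm and 2.88 for the 5p arm, where the median over the 451 miRNAs tested was 0.966. Only 21 and 23 of the 451 had a larger factor. Since that library was singled out for its high leukocyte miRNAs, a high place of miR-142a by this factor is no separate finding. On the log2(CPM + 1) scale the SD of the 3p arm was 0.92 in C57BL/6 and 0.24 in MRL/lpr, against medians over all miRNAs of 0.31 and 0.25. For the 5p arm the SDs were 0.95 and 0.53, so this arm was also more spread than most miRNAs in MRL/lpr.

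**Figure D2:**
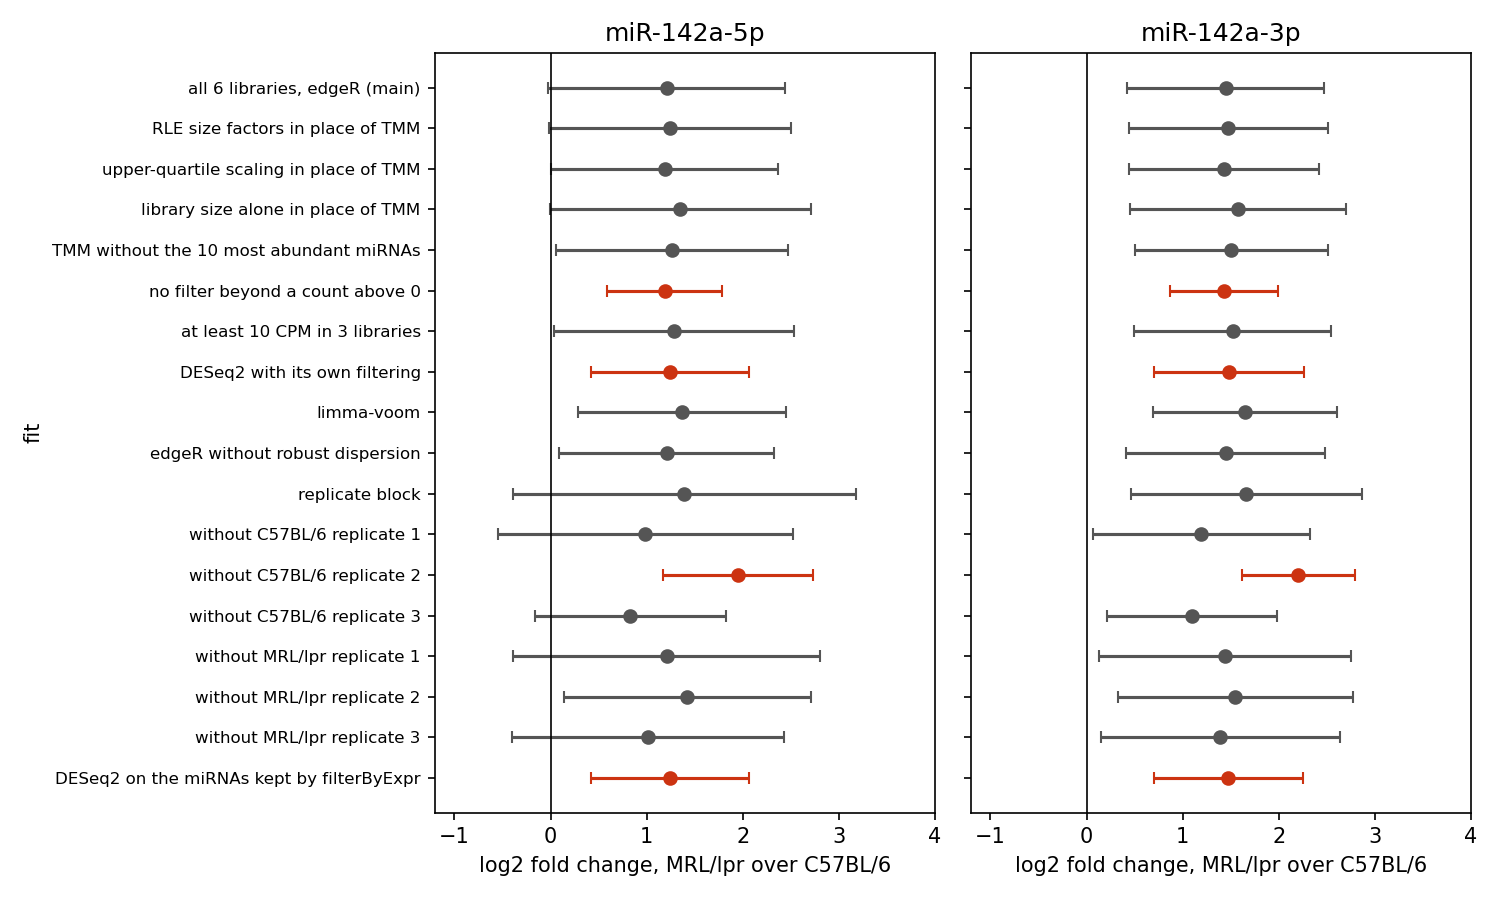
Log2 fold change of each arm, MRL/lpr over C57BL/6, with its 95% interval, in the fit with all 6 libraries and under each alternative run for both arms; red marks an adjusted p under 0.05. All points are above 0, and the largest, 1.95 and 2.21, come from the fit without C57BL/6 replicate 2.

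The call also turned on the tool. DESeq2 with its own filtering put both arms past the threshold with all 6 libraries (3p log2 fold change 1.48, DESeq2 adjusted p = 0.00513; 5p log2 fold change 1.24, DESeq2 adjusted p = 0.0419), and called 51 of 612 miRNAs in all. edgeR without the filter on low counts also called both, at adjusted p of 7.92e-05 and 0.00636. limma-voom called neither, at adjusted p of 0.0640 and 0.128. Over the 18 alternatives run for the 3p arm the adjusted p ran from 7.92e-05 to 0.297, and over the 17 for the 5p arm from 0.00636 to 0.531. Scaling by library size alone, which moved the median of all miRNAs by 0.15 on the log2 scale, gave log2 fold changes of 1.58 and 1.35, still short of the threshold.

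The ratio of the arms shows which side of the duplex was recovered. The 5p arm exceeded the 3p arm in all 6 libraries. The 3p arm took 31.4%, 33.5% and 35.3% of the counts of both arms in C57BL/6 replicates 1, 2 and 3, with 95% exact (Clopper-Pearson) intervals of 27.5 to 35.5, 31.3 to 35.9 and 31.0 to 39.9. It took 37.1%, 43.1% and 33.7% in MRL/lpr replicates 1, 2 and 3, with intervals of 35.3 to 38.9, 40.4 to 45.8 and 31.9 to 35.5. MRL/lpr replicate 2, the library of its strain with the least miR-142a, thus had the highest 3p share, and its interval does not overlap those of the 5 other libraries. These intervals too cover counting error only, not the spread between samples. The 3 C57BL/6 shares had intervals that overlap each other, although replicate 2 held 265 CPM of miR-142a against 109 and 72.8 CPM.

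The 3p share averaged 33.4% ± 1.97 for C57BL/6 and 38.0% ± 4.74 for MRL/lpr (SD, n = 3 each), and the groups overlapped. As log2 of 3p over 5p, after adding 1 CPM, the means were -0.98 ± 0.13 and -0.71 ± 0.29 (SD). The difference was 0.27 ± 0.23 SE (95% interval -0.26 to 0.79, limma adjusted p = 0.683 over 105 hairpins with both arms tested, exact two-sided permutation p = 0.2 with n = 3 each, where 0.1 is the smallest p possible). The interval leaves room for a shift of up to 0.79 towards the 3p arm and 0.26 towards the 5p arm. Without C57BL/6 replicate 2 it was the same to 2 decimals, and without MRL/lpr replicate 2 it fell to 0.11 (limma adjusted p = 0.795).

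No hairpin passed the arm test in limma (0% of 105), while 14 had an unadjusted p under 0.05, and 47 of the 105 had a larger difference than miR-142a. The arms of miR-142a were also closer in level than those of most hairpins, with a mean log2 ratio of -0.84 over the 6 libraries, and 11 of 105 hairpins had a ratio nearer to 0. The 5p arm was the more abundant in 63 of the 105. Adapter ligation favours some miRNA ends over others, so the ratio of 2 arms within a library need not be their ratio in the tissue, while its comparison between libraries is less affected. The sum of the arms ran over a 6.17-fold range between libraries, while the 3p share ran from 31.4% to 43.1%, and the library with the most miR-142a, MRL/lpr replicate 3, had neither the highest nor the lowest share.

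**Figure D3:**
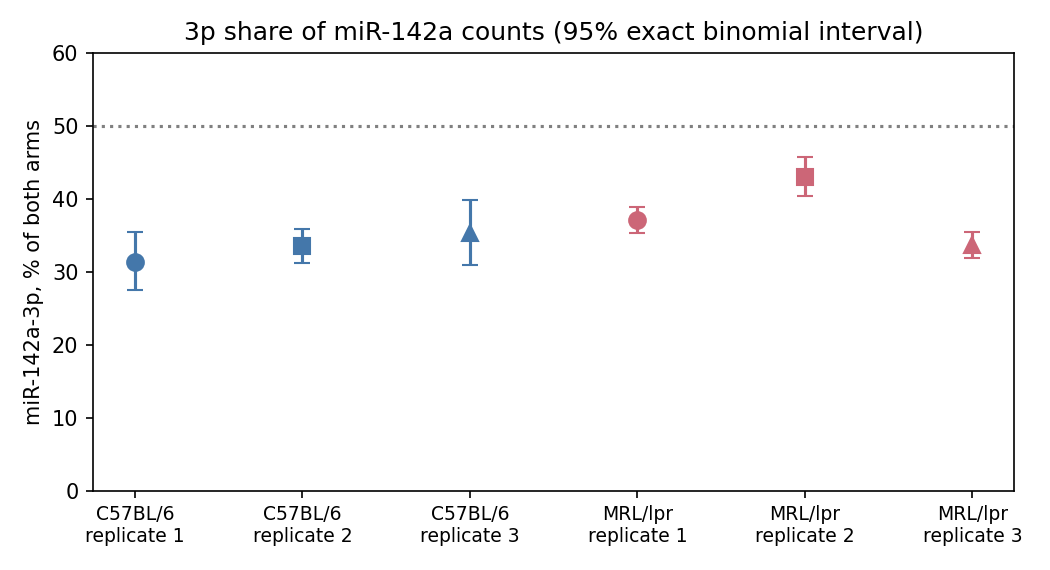
Share of miR-142a-3p in the counts of both arms for each library, with 95% exact binomial intervals; the dotted line marks equal counts. Every library lies below it, and MRL/lpr replicate 2, at 43.1%, is the highest.

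The antisense miRNA miR-142b was near the limit of detection and was not tested. It had 2, 3 and 2 counts in C57BL/6 replicates 1, 2 and 3, and 11, 7 and 8 counts in the MRL/lpr libraries. The 95% Poisson intervals reach up to at least 7.22 counts in every C57BL/6 library and down to at most 5.49 in every MRL/lpr library. Each C57BL/6 interval thus overlaps each MRL/lpr interval, and no fold is given. Its share of the counts of the locus was between 0.182% and 0.525% in every library. With its counts added to the 3p arm, the log2 fold change of that arm was 1.45 (edgeR adjusted p = 0.0910).

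How far miR-142a followed other leukocyte miRNAs was read against a list of 10. The list holds miR-150-5p and both arms of miR-342 (mature lymphocytes), miR-155-5p (activated lymphocytes and macrophages), miR-146a-5p and miR-146b-5p (induced by NF-κB), both arms of miR-223 (granulocytes and other myeloid cells) and both arms of miR-511 (macrophages). All 10 were in the table and 9 were tested. miR-155-5p rose, from 70.1 ± 28.1 to 173 ± 27.5 CPM (SD, n = 3; log2 fold change 1.30, edgeR adjusted p = 0.0331), and no other member passed, so 1 of 9 was higher beside 4.21% of all miRNAs. Of the 9, 4 log2 fold changes were above 0 and 5 below, with a median of -0.098, while the median of all miRNAs was -0.027. Without C57BL/6 replicate 2 all 9 were above 0, with a median of 0.71 beside -2.37e-04 for all miRNAs. In that fit 3 passed (8.94% of all miRNAs were higher), namely miR-155-5p, miR-146a-5p and miR-511-3p, with log2 fold changes of 1.71, 0.74 and 0.93, all smaller than those of the miR-142a arms. The library left out was singled out for its high leukocyte miRNAs. Leaving it out raises the values of this list by construction and is no separate support for a rise.

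All 10 were higher in C57BL/6 replicate 2 than in both other C57BL/6 libraries, but not by the same factor. That library was singled out for its high leukocyte miRNAs, so this direction was fixed in advance and is not a result. The share of all miRNAs that were highest there was not taken. The excess over the mean of the others was 1.36-fold for miR-146b-5p, 1.89-fold for miR-155-5p, 2.11-fold for miR-150-5p and 2.55-fold for miR-342-3p, the median of the 9 tested. It was 4.47-fold for miR-223-3p, 5.23-fold for miR-146a-5p and 8.36-fold for miR-511-3p. The miR-142a arms, at 2.96 and 2.88, lay within this range, and the partners miR-146a-5p and miR-146b-5p lay far apart in it. Of the 11 kidney epithelium miRNAs listed, 10 were tested, and their median factor in that library was 0.754. Their summed level was 73638 CPM there and 112585 to 123664 CPM in the other 5 libraries. The part that this lower epithelial signal has in the miR-142a level of that library was not tested.

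Set against the other leukocyte miRNAs within each library, miR-142a stood higher in MRL/lpr. For each 1000 CPM of the other leukocyte list there were 17.6, 9.15 and 11.9 CPM of miR-142a in C57BL/6 replicates 1, 2 and 3. There were 37.6, 27.7 and 41.4 CPM in MRL/lpr replicates 1, 2 and 3. The groups did not overlap, and C57BL/6 replicate 2, high in miR-142a itself, had the lowest ratio of all. Since this library was singled out for its high leukocyte miRNAs, which form the divisor, its low ratio is no separate finding. The difference was 2.82-fold (log2 difference 1.50, exact two-sided permutation p = 0.1, the smallest that 3 against 3 can give, and 0.3 when adjusted over 3 ratio tests), and 2.42-fold without C57BL/6 replicate 2. The sum of the list is mostly miR-146a-5p, and without it the log2 difference was 1.20. Taken as the median of the ratios to each tested member, in which miR-146a-5p weighs no more than the others, the log2 difference was 0.76.

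Against single members, the ratio was higher in every MRL/lpr library than in every C57BL/6 library for 7 of the 9. The same held for 40.3% of the 449 other miRNAs tested. For miR-150-5p the ratio ran from 0.109 to 0.196 in C57BL/6 and from 0.267 to 0.447 in MRL/lpr. For miR-223-3p it ran from 0.260 to 0.494 and from 0.698 to 1.36. The exceptions were miR-155-5p and miR-146b-5p. The ratio to miR-155-5p ran from 1.43 to 2.59 in C57BL/6 and from 1.77 to 2.24 in MRL/lpr, a 1.08-fold difference between groups.

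**Figure D4:**
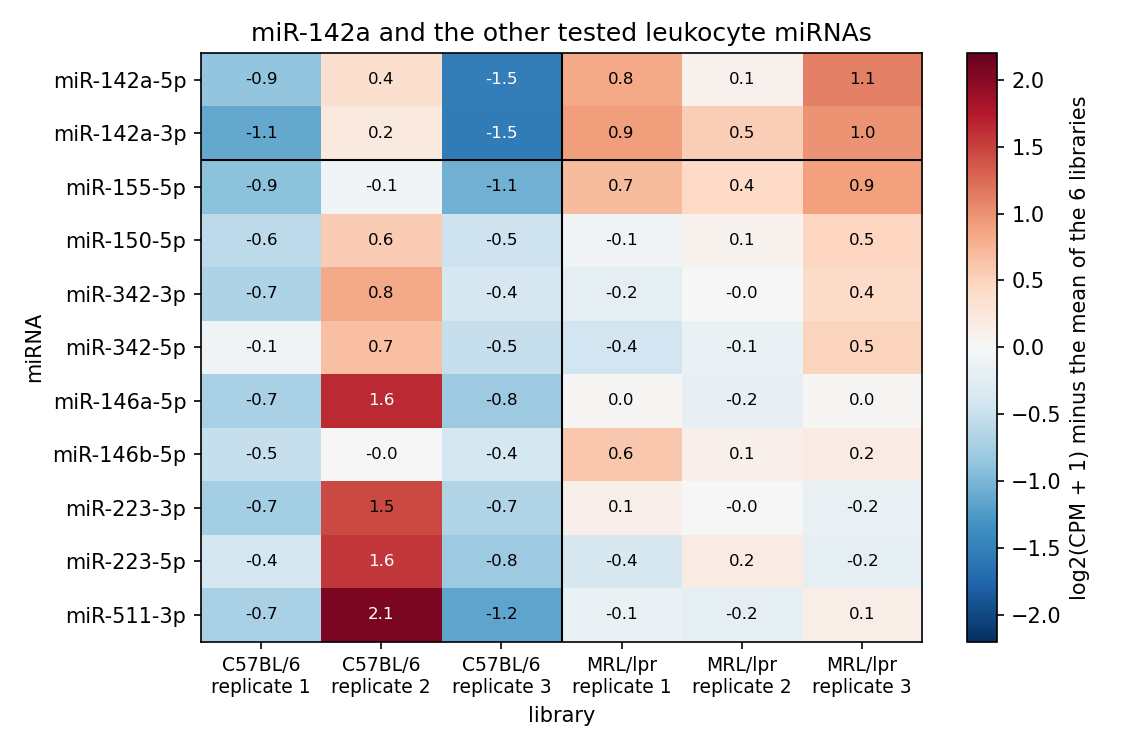
Level of miR-142a and of the 9 other tested leukocyte miRNAs in each library, as log2(CPM + 1) minus the mean of the 6 libraries for that miRNA; red is above and blue below that mean. In the miR-150-5p, miR-342, miR-146a-5p, miR-223 and miR-511-3p lines C57BL/6 replicate 2 is the highest library, while in the miR-142a, miR-155-5p and miR-146b-5p lines an MRL/lpr library is.

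Against the kidney's own epithelial miRNAs the groups overlapped. For each 1000 CPM of the epithelium list there were 0.936, 3.60 and 0.632 CPM of miR-142a in C57BL/6 replicates 1, 2 and 3, and 3.46, 2.08 and 3.93 CPM in the MRL/lpr libraries. C57BL/6 replicate 2 was here above MRL/lpr replicates 1 and 2. The difference was 2.37-fold (log2 difference 1.24, exact two-sided permutation p = 0.3, adjusted p = 0.3 over 3 ratio tests), and 3.96-fold without C57BL/6 replicate 2 (exact p = 0.1). Of its 10 tested members 2 were higher in MRL/lpr, beside 4.21% of all miRNAs. These were miR-802-5p and miR-204-5p. The ratio of miR-142a to them was 0.787 and 0.962 times as high in MRL/lpr as in C57BL/6. To the other tested members it was 1.80 to 3.15 times as high. For 1 of the 10 the ratio was higher in every MRL/lpr library than in every C57BL/6 library, beside 40.3% of the other miRNAs tested. The mean of miR-204-5p went from 5195 CPM in C57BL/6 to 14945 CPM in MRL/lpr, which raises the sum there. The sum rests mostly on miR-429-3p, miR-192-5p and miR-194-5p, which were among the abundant miRNAs in each library. miR-215-5p, listed as well, was at or near 0.

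Other cell types that the tissue holds were read in the same way. Neither arm of miR-126a, an endothelial miRNA, passed, with log2 fold changes of -0.28 and -0.088, and none of the 6 mesenchymal miRNAs passed. In C57BL/6 replicate 2, the library of its strain highest in miR-142a, 4 of the 6 mesenchymal miRNAs were above both other C57BL/6 libraries. One of them, miR-214-3p, stood at 75.3, 183 and 76.5 CPM in C57BL/6 replicates 1, 2 and 3. In the same libraries miR-199a-3p had 13192, 36207 and 242 counts, and miR-199b-3p had 184, 228 and 15070. These entries changed places in C57BL/6 replicate 3, so their part in the count of 6 is uncertain. Among 4 erythroid miRNAs tested none passed. In C57BL/6 replicate 2, 0 of the 5 listed erythroid miRNAs were above both other C57BL/6 libraries, and miR-451a, the main miRNA of red cells, stood at 2829, 593 and 3488 CPM in C57BL/6 replicates 1, 2 and 3. The share of all miRNAs above both other C57BL/6 libraries was not taken, so the mesenchymal and erythroid counts are description only. Over all 6 libraries the median log2 fold change of the 4 tested erythroid miRNAs was 0.57, beside -0.027 for all miRNAs, and without C57BL/6 replicate 2 it was 0.25. Among the 4, miR-486a-5p and miR-486b-5p were near the floor, with group means from 2.81 to 3.99 CPM. Their counts also changed places between libraries. In MRL/lpr replicates 1 and 2, miR-486a-5p had 4 and 46 counts and miR-486b-5p had 40 and 0. How reads were shared within this pair, or between miR-199a-3p and miR-199b-3p, is not given in the sources. Their log2 fold changes had SEs of 1.08 and 1.24, so this median is loosely fixed. The parts of mesenchymal cells and of blood in the level of miR-142a were not tested.

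By the shape of the profile over the 6 libraries, the nearest miRNA to each arm was the other arm, out of 277 others with at least 10 CPM on average. The measure was the root-mean-square difference of log2(CPM + 1) after each profile was centred on its own mean, and it was 0.23 between the arms. Next was miR-155-5p, at 0.27 from the 3p arm and 0.31 from the 5p arm. miR-148a-3p was next for the 3p arm, at 0.30, and came just after miR-21a-3p for the 5p arm, both at 0.40. It had 65.3, 196 and 57.02 CPM in C57BL/6 replicates 1, 2 and 3 and 359, 208 and 196 CPM in MRL/lpr replicates 1, 2 and 3, so C57BL/6 replicate 2 again stood among the MRL/lpr values. The 5 nearest to the 3p arm, other than its partner, also included miR-297a-5p (0.41), miR-467c-5p (0.42) and miR-21a-3p (0.45). The 5 nearest to the 5p arm included miR-21a-3p (0.40), miR-669d-5p (0.45) and miR-467c-5p (0.47). All these profiles come from the same 6 libraries and share their scaling, and no test was made of the likeness.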

How the data were processed

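Small RNA from kidney was ligated to adapters, amplified, size-selected on gels and sequenced as DNA nanoballs, per the labels' protocols. The values deposited by the authors are whole-number counts per mature miRNA, not normalized, in 1 table. Bowtie2, DESeq2 and GRCm38.p6 are listed in the submitters' processing notes, without roles. The annotation, strand handling and multi-mapping are not given in the sources. Columns were matched to samples by strain letter, age and replicate number, and all 6 libraries were used.

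In R 4.3.3, miRNAs kept by filterByExpr (minimum count 10, minimum total 15) were scaled by TMM and tested for group with the quasi-likelihood test of edgeR 4.0.16 (robust dispersion, Benjamini-Hochberg over all tested, threshold 0.05). Standard errors come from the coefficient and its F statistic. Arm ratios were tested with limma 3.58.1, after adding 1 CPM, and ratios within libraries by exact permutation. DESeq2 1.42.0 was an alternative, beside other scalings, filters, limma-voom, the replicate number as a block and each library left out. Scripts were tested on simulated data. No library was a copy of another (chi-square per degree of freedom at least 123 within groups). Members and lists were chosen with earlier results of these data known. Named miRNAs are the members, the listed markers and the 5 of nearest profile to each arm. Figures used matplotlib 3.10.9.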

Additional observations from a re-analysis of the deposited data

How the results depend on the processing

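Both arms of miR-142a kept a difference above 0 in every alternative run (18 for the 3p and 17 for the 5p arm), and so did the arm ratio (15) and the ratios to the epithelium and other leukocyte miRNAs (9 each). The side of the threshold changed. For the 3p and the 5p arm the log2 fold changes were past it with no filter beyond a count above 0 (1.43 and 1.19), with DESeq2 and its own filtering (1.48 and 1.24) and with DESeq2 on the miRNAs kept by filterByExpr (1.48 and 1.24), the last added after seeing the data, as was adding miR-142b counts. With a library left out they ran from 1.10 to 2.21 and from 0.83 to 1.95, past the threshold only without C57BL/6 replicate 2. The causes were not tested. The number of miRNAs called, 28 of 451, became 64 without a filter, but of 1395 tested. DESeq2 called 51 of 612 with its own filtering and 48 of 448 on the kept miRNAs. With the replicate number as a block the number was 13 of 451. With a library left out it ran from 5 (without MRL/lpr replicate 3) to 54 (without C57BL/6 replicate 2), with 15 and 11 without C57BL/6 replicates 1 and 3. The replicate numbers are shared between strains, but same-numbered libraries did not deviate together (correlations of -0.37, 0.034 and -0.37, and no C57BL/6 library correlated best with its own number). With the replicate block the arms had log2 fold changes of 1.66 and 1.39 (edgeR adjusted p = 0.129 and 0.336), the arm ratio 0.27, and the ratios to epithelium and other leukocyte miRNAs 1.24 and 1.50. The block changed no call of either arm or of the arm ratio. The ratios to the lists could not pass in any setting, so for them no call could change. Their exact p cannot go below 0.1, or below 0.25 with the block. With a library left out the arm ratio ran from 0.11 to 0.40. The ratios to epithelium and other leukocyte miRNAs then ran from 0.73 to 1.99 and from 1.28 to 1.75. Against the member of middle level in each library, the ratio to other leukocyte miRNAs was 0.76.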
